A study of Arabidopsis thaliana with 12 samples.

Results

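The genes described are the plastid-encoded genes of Arabidopsis thaliana that serve the plastid's own gene expression and upkeep rather than photosynthesis. They were taken from an ATH1 array as the probe sets that the platform table pairs with 1 gene, whose gene lies on the plastid genome and whose symbol begins with rpo, rps, rpl, matK, accD, clpP, ycf1 or ycf2. The rule found 22 probe sets, each for a different gene, among 69 plastid probe sets paired with 1 gene and 22746 probe sets in all. They code for 4 subunits of the plastid RNA polymerase (rpoA, rpoB, rpoC1, rpoC2), 8 proteins of the small ribosomal subunit (rps2, rps3, rps4, rps14, rps15, rps16, rps18, rps19), 7 proteins of the large ribosomal subunit (rpl14, rpl16, rpl20, rpl22, rpl32, rpl33, rpl36), and matK, accD and clpP. Other plastid genes that fit the rule by name, but with no probe set paired with them alone, were not analysed here.

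RNA came from plants of 3 mutants and the wild types Col-0 and Col-7, at 12 d or 14 d, with 2 arrays in each of 6 groups, all grown from cold-treated seed on agar with 1% sucrose. The mutants at 12 d were etr1 (allele etr1-1), whose altered ethylene receptor leaves the plant insensitive to ethylene, and aba2 (also named gin1-3), which lacks an enzyme of abscisic acid synthesis. The mutant at 14 d was ein2 (allele ein2-1), which lacks EIN2, needed to pass the ethylene signal from the receptors to the nucleus. The wild types were Col-0 at 14 d, Col-7 at 12 d and Col-0 at 12 d. The labels state neither the organ sampled nor the wild type that belongs to aba2, so aba2 was compared with both. The series design mentions separate array sets but assigns no array to either. The labels do not say whether the 2 arrays of a group came from separate cultures, so p-values measure only the spread between these samples, which may be technical. No probe set was paired with ETR1, EIN2 or ABA2, and the genotypes could not be checked by the level of those genes.

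Plastids keep a small genome that is read by 2 kinds of RNA polymerase, a bacterial type whose core is made from rpoA, rpoB, rpoC1 and rpoC2 and a phage type encoded in the nucleus. The nuclear enzyme is known for reading housekeeping genes, the rpoB operon and accD among them, early in leaf development, while the bacterial type reads most photosynthesis genes once the core has been made. The mRNAs are translated on bacterial-type ribosomes built from plastid-encoded and nuclear-encoded proteins, MatK helps to splice plastid introns, AccD is a subunit of the acetyl-CoA carboxylase that starts fatty acid synthesis, and ClpP is a proteolytic subunit of the Clp protease. The standard array protocol primes cDNA from poly(A) tails, which plastid mRNAs do not keep in stable form.

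The deposited MAS5 signals were scaled so that every array had a trimmed mean between 500.04 and 500.05. The log2 difference between the 2 arrays of a group had a standard deviation of 0.25 in Col-0 at 14 d and up to 0.53 in Col-0 at 12 d over all probe sets. The 25S rRNA control stood apart on array 2 of aba2 (3537) and array 2 of Col-0 at 12 d (4442), against 148 to 512 on the other arrays. The 5S rRNA control was 216 to 431 on the 4 arrays of 14 d and 7.07 to 46.5 on the 8 arrays of 12 d. The ratio of 3′ to 5′ signal ran from 1.13 to 2.16 for the GAPDH control and from 2.02 to 3.71 for the actin control, both highest on array 2 of Col-7. For the ubiquitin control it ran from 2.07 to 3.39, highest on array 1 of etr1. Each of these controls has another pair of 3′ and 5′ probe sets, which placed the arrays otherwise. In those pairs the ratio was highest on array 2 of Col-0 at 12 d for GAPDH, array 2 of aba2 for actin and array 2 of Col-7 for ubiquitin. Of the green tissue markers, 1 of 16 had a paired probe set (LHCB4.1, a light-harvesting protein, 16211 to 26829), and of the root markers 2 of 7 (EXPA7, a root hair expansin, 37.5 to 138, and AT3G01190, a root peroxidase, 175 to 678.2).

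All 22 genes had a mean signal over the 40th percentile of all probe sets. The lowest arrays were in the etr1, aba2 and Col-7 groups for rpoB, at 74.4 to 185, and in the aba2 group for rps14, at 27.6 and 53.8, close to the offset of 50 that was added before taking log2. The other 12 d arrays of rps14 were also low, at 53.9 to 117. Over the 12 arrays the signal of rps14 varied 17.7-fold, that of rpoB 5.94-fold and that of rpl16 5.81-fold. Those of rpl33, rps3 and rps18 varied 1.73-fold, 1.64-fold and 1.63-fold. Group means were highest in Col-7 for 11 of the 22 genes and in Col-0 at 12 d for 6, and lowest in Col-0 at 14 d for 14 and in aba2 for 4.

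**Figure D1:**
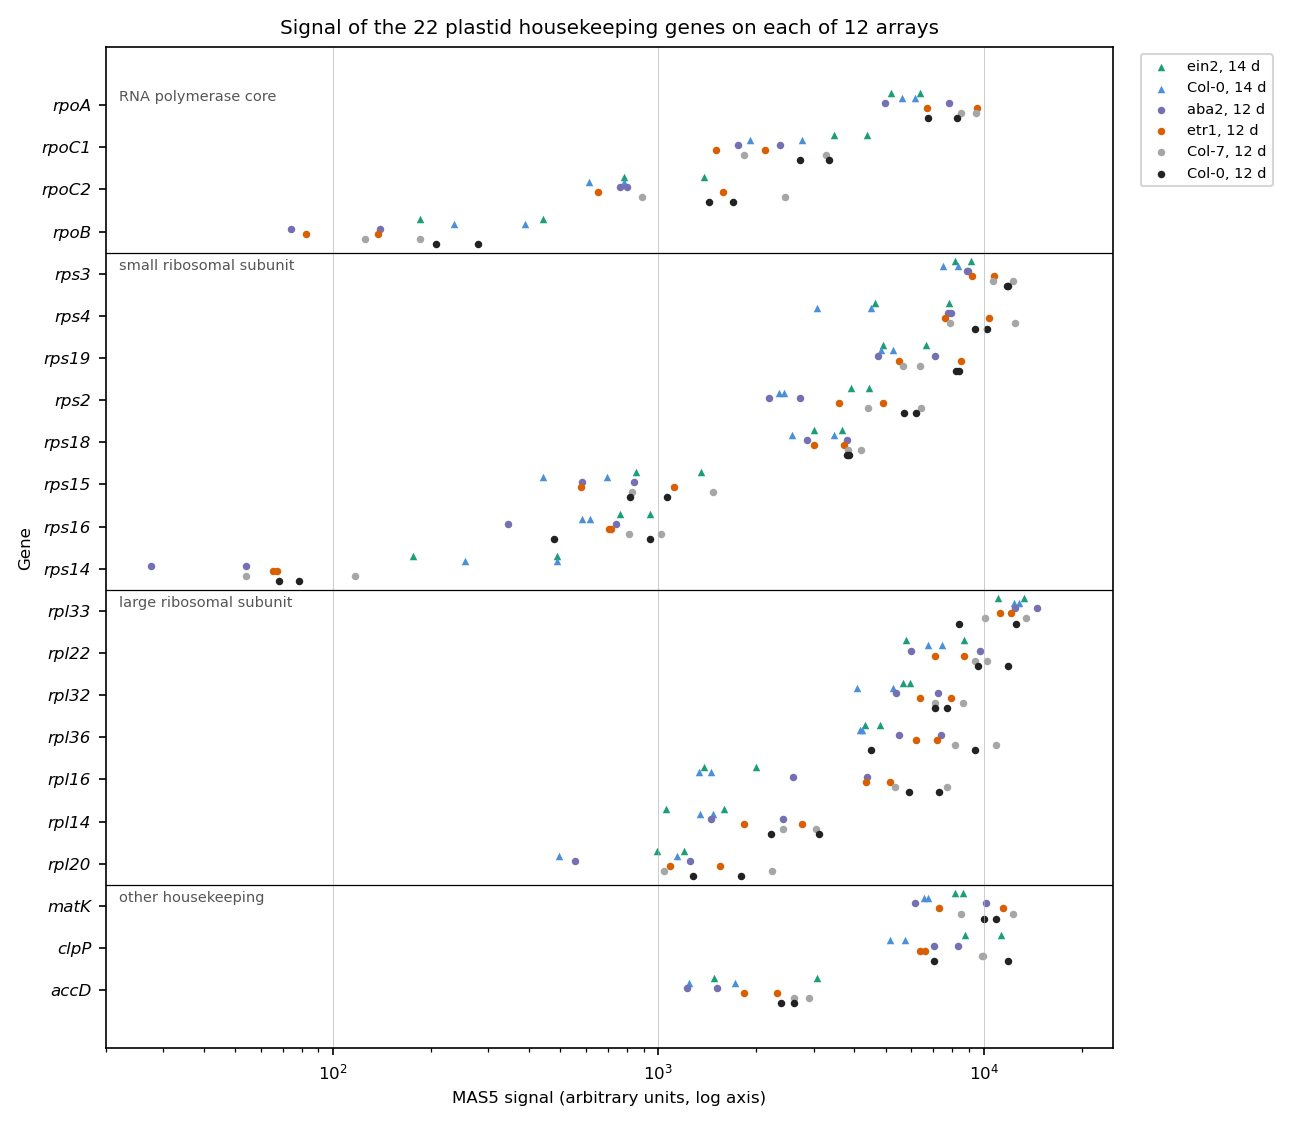
MAS5 signal (log axis, arbitrary units) of the 22 plastid genes on each of 12 arrays, by role, with triangles for 14 d and circles for 12 d. Signals compare arrays within a gene and not genes with each other. For rpl16 the 4 triangles lie left of the 8 circles, and for rps14 they lie right of them.

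Between 14 d and 12 d in Col-0, 3 ribosomal protein genes (rpl16, rps2 and rps4) fell and 1 (rps14) rose. On the log2(signal + 50) scale rpl16 was 4.60-fold lower and rps14 3.29-fold higher. The call of rps14 passed in 3 of 13 alternatives and was lost with the replicate number as a block (limma adjusted p = 0.0559). Of the 22 genes 3 were called lower, where 0.8% of all probe sets were, and 1 higher, where 2.63% were, by limma with Benjamini-Hochberg adjusted p under 0.05. Of all calls 76.7% were higher at 14 d, and 57.8% when arrays were centred on their nuclear probe sets. The median difference of the 22 genes on the log2(signal + 50) scale was -0.66, against 0.0063 for all probe sets, and 19 of 22 were lower in mean at 14 d. In 17 genes both arrays at 14 d lay below both arrays at 12 d, where 20.6% of all probe sets did, and in 1 above, where 23.3% did. At an unadjusted p under 0.05, 12 were lower, where 6.56% of all were, and 1 higher, where 9.64% were. From bulk RNA, fewer plastids or green cells cannot be told apart from less RNA per plastid, and age cannot be told apart from anything else that differed between the arrays of 12 d and 14 d.

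In the large subunit, rpl16 had signals of 1447 and 1329 at 14 d and 5897 and 7279 at 12 d. Every 14 d array was far below every 12 d array, a log2 difference of -2.20 ± 0.27 (SE, n = 2 each, limma adjusted p = 0.00304). None of the other 6 large subunit genes passed. The gene rpl14 had 1472 and 1345 at 14 d, against 2216 and 3111 at 12 d (-0.88 ± 0.30, limma adjusted p = 0.165). The gene rpl20 had 496 and 1138 at 14 d, against 1279 and 1788 at 12 d (-0.96 ± 0.47, limma adjusted p = 0.352). In both genes the arrays did not overlap, yet the test was not passed. The log2 differences of rpl22, rpl36 and rpl32 were -0.59, -0.62 and -0.67, with arrays that did not overlap and adjusted p from 0.113 to 0.342. The exception was rpl33, with 12864 and 12403 at 14 d, against 12544 and 8409 at 12 d. Its arrays overlapped and its difference was 0.30 ± 0.22 (limma adjusted p = 0.571).

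In the small subunit, rps2 had 2350.4 and 2427 at 14 d and 5683 and 6187 at 12 d. Its replicate arrays lay close together at both ages, and it fell by 1.29 on the log2 scale (SE 0.21, 2.45-fold, limma adjusted p = 0.0103). The gene rps4 had 3065 and 4507 at 14 d and 9421 and 10275 at 12 d, again without overlap (-1.39 ± 0.30, limma adjusted p = 0.0325). Protein S4 is one of the first to bind the 16S rRNA when the bacterial small subunit is built. The gene rps14 went the other way, with 254 and 489 at 14 d and 78.3 and 68.2 at 12 d (1.72 ± 0.40, limma adjusted p = 0.0460). Both 14 d arrays were above both 12 d arrays, although they differed from each other more than the 12 d arrays did. The other 5 small subunit genes did not pass: rps3, rps18, rps19 and rps15 had arrays that did not overlap and differences of -0.58, -0.35, -0.71 and -0.70, with adjusted p from 0.0659 to 0.439. The closest to passing was rps3, with 7492 and 8315 at 14 d and 11775 and 11885 at 12 d. The arrays of rps16 overlapped, at 583 and 616 at 14 d against 942 and 478 at 12 d.

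None of the 4 polymerase genes passed the test with age. The signals of rpoC2, the gene of the β″ subunit, were 613 and 781 at 14 d and 1435 and 1691 at 12 d (-1.11 ± 0.47, limma adjusted p = 0.276). Those arrays did not overlap, but the standard error was among the highest of the 22 genes. For rpoB, which codes for the β subunit, the signals were 235 and 388 at 14 d, against 279 and 207 at 12 d, with overlap (0.28 ± 0.37, limma adjusted p = 0.794). The β′ gene rpoC1 had 1910.2 and 2772 at 14 d, against 3338 and 2730.2 at 12 d. Its arrays overlapped, and those of the α gene rpoA did not, at 5625 and 6131 at 14 d against 8258 and 6736 at 12 d. Their log2 differences were -0.38 ± 0.30 and -0.34 ± 0.24, with adjusted p of 0.607 and 0.555.

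The remaining 3 genes were alike with age, without passing. The splicing factor gene matK had 6569 and 6743 at 14 d and 10946 and 10027 at 12 d (-0.65 ± 0.28, limma adjusted p = 0.278). The gene accD had 1238 and 1717 at 14 d and 2605 and 2377 at 12 d (-0.75 ± 0.29, limma adjusted p = 0.238). The protease gene clpP had 5157 and 5737 at 14 d and 11856 and 7027 at 12 d (-0.74 ± 0.23, limma adjusted p = 0.126). In each of the 3 both 14 d arrays lay below both 12 d arrays.

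Not every one of the 4 calls with age withstood the loss of an array. For rpl16 the adjusted p stayed between 0.00693 and 0.0416 whichever array was left out. For rps2 it became 0.109 without array 1 and 0.0694 without array 2 of Col-0 at 14 d. For rps4 it became 0.0599 and 0.0693 without array 1 or 2 of Col-0 at 12 d, and 0.289 and 0.0702 without array 1 or 2 of Col-0 at 14 d. For rps14 these values were 0.0848, 0.0938, 0.107 and 0.290. Without both arrays of high 25S rRNA signal, 3 genes were called lower with age and 0 higher, with clpP in the place of rps4.

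The mutants and Col-7 add 8 arrays on which the same genes can be read against age. For rpl16 the 4 arrays at 14 d (ein2 and Col-0) spanned 1329 to 1994, and the 8 arrays at 12 d spanned 2602 to 7720. For rps14 the 4 arrays at 14 d spanned 176 to 489, and the 8 at 12 d spanned 27.6 to 117. Neither gene's ranges overlapped between the ages. The share of all probe sets with ranges apart in this way is not given here. Both genes were picked by calls on the Col-0 arrays, which are among these arrays. Those of rps4 met, at 3065 to 7809 at 14 d and 7596 to 12452 at 12 d, and those of rps2 overlapped widely, at 2350.4 to 4452 against 2189 to 6409. The plants of 14 d and 12 d carry different mutations, so these ranges are a description.

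**Figure D2:**
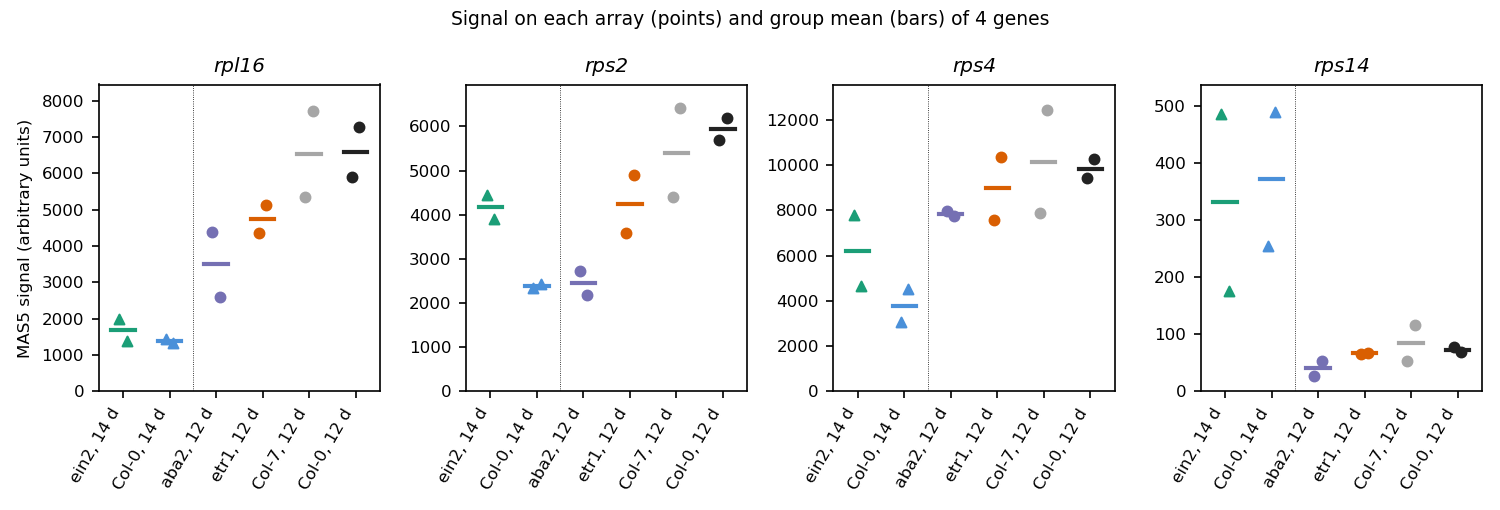
MAS5 signal (arbitrary units, axes from 0) of the 4 genes called with age, as points for the 12 arrays and bars for group means, with ein2 and Col-0 at 14 d left of the dotted line. For rpl16 and rps14 the 14 d arrays lie apart from all 12 d arrays, and the 2 aba2 arrays of rps2 (2725 and 2189) lie near the 2 Col-0 arrays of 14 d.

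In aba2, rps2 was lower than in either wild type, by 2.15-fold against Col-7 and 2.40-fold against Col-0. Its signals were 2725 and 2189 in aba2, 4397 and 6409 in Col-7, and 5683 and 6187 in Col-0 at 12 d. Both aba2 arrays were below all 4 wild-type arrays. The difference passed the limma test against Col-0 (-1.26 ± 0.21, adjusted p = 0.0234) and not against Col-7 (-1.10 ± 0.21, adjusted p = 0.0806). The same Col-0 arrays of 12 d also serve the comparisons of age and of etr1. Against Col-0, 1 of the 22 genes was called lower, where 0.114% of all probe sets were, and 0 higher, where 0.734% were. Against Col-7 limma called 0 of 22 lower, where 0.11% of all probe sets were called, and 0 higher, where 0.158% were, while at an unadjusted p under 0.05, 5 were lower, where 5.48% of all were, and 0 higher, where 5.33% were. At that level 5 were lower against Col-0, where 4.6% of all probe sets were, and 0 higher, where 5.56% were.

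The call against Col-0 was sensitive to single arrays. The adjusted p was 0.0436 without array 1 of Col-0, 0.0504 without array 2 of Col-0, 0.1002 without array 1 of aba2 and 0.217 without array 2 of aba2. Without both arrays of high 25S rRNA signal the difference was -1.05 and the adjusted p 0.221.

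The whole group was lower in mean in aba2, with the same gene as the exception against each wild type. The median log2 difference of the 22 genes was -0.46 against Col-7 (all probe sets -0.020) and -0.43 against Col-0 (all probe sets -0.021), comparisons that share the aba2 arrays. Against Col-7 it was -0.65 without array 1 and -0.24 without array 2 of Col-7. Array 2 of Col-7 had the highest summed signal of the 22 genes (139142). It also had the highest 3′ to 5′ ratio in some control pairs of probe sets and not in others. For each of GAPDH, actin and ubiquitin this depended on the pair read. The part of these ratios in the difference was not tested. In 12 genes both aba2 arrays lay below both Col-7 arrays, where 20.7% of all probe sets did, and in 11 below both Col-0 arrays, where 18.6% did. In 0 genes did they lie above both arrays of Col-7 (all probe sets 17.7%) or of Col-0 (15.5%). The exception was rpl33, with 14564 and 12467 in aba2, 10117 and 13503 in Col-7 and 12544 and 8409 in Col-0, and its arrays overlapped with both. By role, the median against Col-7 was -0.46 over the polymerase genes, -0.46 over the small subunit, -0.53 over the large subunit and -0.37 over the other 3 genes.

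After rps2, the lowest differences against Col-7 were those of accD and rpl16. The carboxylase gene accD had 1515 and 1222 in aba2, 2604 and 2898 in Col-7 and 2605 and 2377 in Col-0. All aba2 arrays were below all wild-type arrays (-0.99 ± 0.29 against Col-7, limma adjusted p = 0.256, and -0.85 ± 0.29 against Col-0, limma adjusted p = 0.322). The gene rpl16 had 4379 and 2602 in aba2, 5357 and 7719.5 in Col-7 and 5897 and 7279 in Col-0, also without overlap (-0.92 ± 0.27 and -0.95 ± 0.27, limma adjusted p = 0.256 and 0.201). Near 0 against Col-7 was rps19, with 4742 and 7076 in aba2 and 5633 and 6384 in Col-7 (-0.049 ± 0.25, limma adjusted p = 0.972). Against Col-0, at 8225 and 8405, both aba2 arrays of rps19 were lower (-0.52 ± 0.25, limma adjusted p = 0.538).

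No polymerase gene passed in aba2 against Col-0, and in 3 of 4 both aba2 arrays lay below both Col-0 arrays. For rpoB the signals were 74.4 and 139.5 in aba2, 126 and 185 in Col-7, and 279 and 207 in Col-0. The aba2 arrays overlapped those of Col-7 and lay below those of Col-0 (-0.92 ± 0.37 against Col-0, limma adjusted p = 0.419). For rpoC2 the signals were 764 and 803 in aba2, 888 and 2459 in Col-7, and 1435 and 1691 in Col-0, below both wild types (-0.88 ± 0.47 and -0.95 ± 0.47, limma adjusted p = 0.544 and 0.560). For rpoC1 they were 1758 and 2368 in aba2, 1827 and 3283 in Col-7, and 3338 and 2730.2 in Col-0. Those of aba2 overlapped Col-7 and lay below Col-0 (-0.26 ± 0.30 and -0.55 ± 0.30, limma adjusted p = 0.813 and 0.619). For rpoA they were 7801 and 4968 in aba2, 9497 and 8507 in Col-7, and 8258 and 6736 in Col-0, below Col-7 and overlapping Col-0 (-0.53 ± 0.24 and -0.26 ± 0.24, limma adjusted p = 0.469 and 0.819).

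In etr1 no gene passed, and the 3 lowest differences were those of the polymerase genes rpoB, rpoC1 and rpoC2, the last of which turned direction without 1 array. Limma called 0 of 22 lower, where 0.11% of all probe sets were called, and 0 higher, where 0.0967% were. At an unadjusted p under 0.05, 3 were lower, where 3.92% of all probe sets were, and 0 higher, where 4.84% were. The median difference was -0.21, against 0.014 for all probe sets. In 10 genes both etr1 arrays lay below both Col-0 arrays, where 15.4% of all probe sets did, and in 0 above them, where 19.2% did. The median rested on the 2 etr1 arrays unequally: it was 0.027 without array 1 and -0.48 without array 2. The 3′ to 5′ ratio of the ubiquitin control given above was highest on array 1 of etr1. That of the other ubiquitin pair was highest on array 2 of Col-7. The part of these ratios was not tested.

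The signals of rpoB were 82.6 and 138 in etr1, against 279 and 207 in Col-0 at 12 d (-0.88 ± 0.37, limma adjusted p = 0.532). Those of rpoC1 were 1504 and 2132 in etr1, against 3338 and 2730.2 in Col-0 (-0.74 ± 0.30, limma adjusted p = 0.515). In both genes the arrays of etr1 and Col-0 did not overlap. Those of rpoC2 were 654 and 1579.6 in etr1, against 1435 and 1691 in Col-0, with overlap (-0.59 ± 0.47, limma adjusted p = 0.808), and the difference was 0.020 without array 1 and -1.19 without array 2 of etr1. The fourth polymerase gene, rpoA, is transcribed from another part of the genome, and its signals were 6691 and 9536 in etr1, against 8258 and 6736 in Col-0. Its arrays overlapped (0.098 ± 0.24, limma adjusted p = 0.958). So did those of the other genes with the highest differences. They were rpl33, with 12166 and 11213 in etr1 against 12544 and 8409 in Col-0 (0.18 ± 0.22), and rps16, with 717 and 704 in etr1 against 942 and 478 in Col-0 (0.071 ± 0.34).

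In ein2 no gene passed either, and 16 of 22 were higher in mean than in Col-0 at 14 d. Limma called 0 higher, where 0.0747% of all probe sets were called, and 0 lower, where 0.149% were. At an unadjusted p under 0.05, 5 genes were higher, where 2.68% of all probe sets were, and 0 lower, where 2.67% were. The median difference was 0.28, against 0.00090 for all probe sets. In 10 genes both ein2 arrays lay above both Col-0 arrays, where 20.5% of all probe sets did, and in 0 below them, where 20% did. This comparison shares the Col-0 arrays of 14 d with the comparison of ages, and on both of those arrays the median log2 signal of the 22 genes was the lowest of the 12, at 11.42 and 11.41, against 12.12 and 11.91 in ein2.

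The highest differences in ein2 were those of rps15, clpP and rps2. The signals of rps15 were 1353 and 855 in ein2, against 443 and 695 in Col-0 at 14 d (0.89 ± 0.37, limma adjusted p = 0.870). Those of clpP were 11325 and 8756 in ein2, against 5157 and 5737 in Col-0 (0.87 ± 0.23, limma adjusted p = 0.365). Those of rps2 were 4452 and 3913 in ein2, against 2350.4 and 2427 in Col-0 (0.79 ± 0.21, limma adjusted p = 0.368). In all 3 genes both ein2 arrays were above both Col-0 arrays. The polymerase gene rpoC1 had 4378 and 3459.7 in ein2, against 1910.2 and 2772 in Col-0 (0.74 ± 0.30, limma adjusted p = 0.840). The lowest differences were those of rps14 (-0.22 ± 0.40), rpl14 (-0.12 ± 0.30) and rpl33 (-0.060 ± 0.22), whose arrays overlapped. For rps14 they were 486 and 176 in ein2 and 254 and 489 in Col-0, for rpl14 1589 and 1054 in ein2 and 1472 and 1345 in Col-0, and for rpl33 11049 and 13288 in ein2 and 12864 and 12403 in Col-0.

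**Figure D3:**
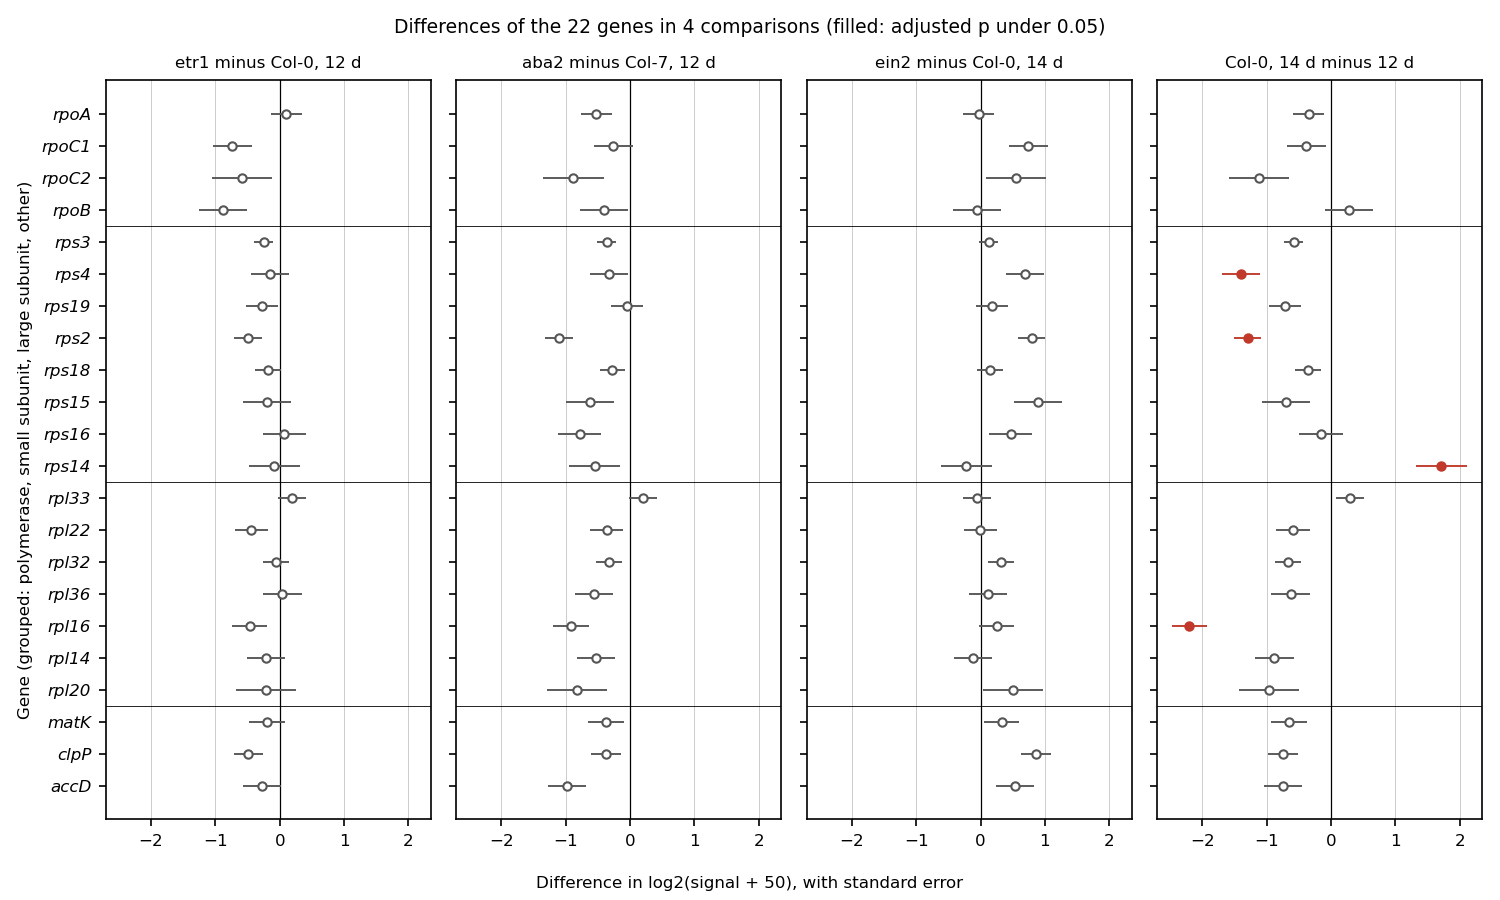
Difference in log2(signal + 50) with its standard error for each of the 22 genes in 4 comparisons, filled where the adjusted p was under 0.05. The 4 filled points are rpl16, rps2, rps4 and rps14 in the comparison of 14 d with 12 d in Col-0.

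Both ethylene mutants were compared through the difference of their effects, each against Col-0 of its own age. The median of the 22 genes was -0.49, against 0.014 for all probe sets. Limma called 0 of 22 lower, where 0.0044% of all probe sets were called, and 0 higher, where 0.0044% were, and 3 were lower at an unadjusted p under 0.05, where 1.86% of all were, and 0 higher, where 2.11% were. Age and mutation differ together here, since etr1 was measured at 12 d and ein2 at 14 d, and they cannot be told apart.

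Between the 12 d mutants, aba2 and etr1, limma called 0 of 22 lower, where 1.01% of all probe sets were called, and 0 higher, where 1.59% were. At an unadjusted p under 0.05, 1 was lower, where 8.78% of all were, and 0 higher, where 7.26% were. In 4 genes both aba2 arrays lay below both etr1 arrays, where 28.2% of all probe sets did, and in 2 above, where 21.8% did. The gene past that level was rps2, with 2725 and 2189 in aba2, against 3595 and 4907 in etr1 (-0.77 ± 0.21, limma adjusted p = 0.0940). Its arrays did not overlap. In clpP both aba2 arrays lay above both etr1 arrays, at 8326 and 7043 in aba2 against 6389 and 6610.3 in etr1 (0.24 ± 0.23, limma adjusted p = 0.698). Between the wild types Col-7 and Col-0 at 12 d, limma called 0 of 22 in either direction, where 0% of all probe sets were called, and 0 were past an unadjusted p of 0.05, where 3.22% of all were higher and 2.24% lower. The differences of the 22 genes between the wild types ran from -0.52 (rpoB) to 0.53 (rpl36), with a median of 0.031. The arrays were apart in 2 genes lower in Col-7, where 12.2% of all probe sets were, and in 1 higher, where 12.4% were.

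Many plastid genes are transcribed together with their neighbours, and the differences were set out in the order of the genes on the plastid genome, counting genes with a probe set. The order does not use the strand, so genes that follow each other in a run need not share a transcript. The run rps2, rpoC2, rpoC1 and rpoB follows the ATP synthase genes atpA, atpF, atpH and atpI in this order, of which atpI had a mean signal under 500. In aba2 against Col-0 the differences along this run were -1.26, -0.95, -0.55 and -0.92, after -0.39 in atpI. With age in Col-0 they were -1.29, -1.11, -0.38 and 0.28, after -0.042 in atpI, and in ein2 0.79, 0.55, 0.74 and -0.054, after 0.28 in atpI. In atpA, atpF and atpH the differences with age were -1.06, -1.26 and -1.60. Those in aba2 against Col-0 were -0.44, -0.72 and -0.81, and those in ein2 0.42, 0.53 and 0.50. In each comparison the standard errors along the run from rps2 to rpoB were 0.21, 0.47, 0.30 and 0.37, and only rps2 in it passed a test. Differences between neighbouring genes were not tested.

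The run of rpoA, rpl36, rpl14, rpl16, rps3, rpl22 and rps19 holds 6 of the ribosomal protein genes. With age in Col-0 its differences were -0.34, -0.62, -0.88, -2.20, -0.58, -0.59 and -0.71. The value of rpl16 stood out within its own run, while rpl14 and rps3 on either side of it did not pass. The genes rpl33, rps18, rpl20 and clpP, which follow each other in the order without regard to strand, had differences with age of 0.30, -0.35, -0.96 and -0.74. In the same order rps14, which rose, lies next to the photosystem I genes psaB and psaA, which fell. Those had signals of 8669 and 10258 (psaB) and 2325 and 3132 (psaA) at 14 d, against 19988 and 20072 (psaB) and 9857 and 6828 (psaA) at 12 d. Their differences were -1.08 ± 0.21 and -1.59 ± 0.28, with limma adjusted p of 0.0225 and 0.0136.

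**Figure D4:**
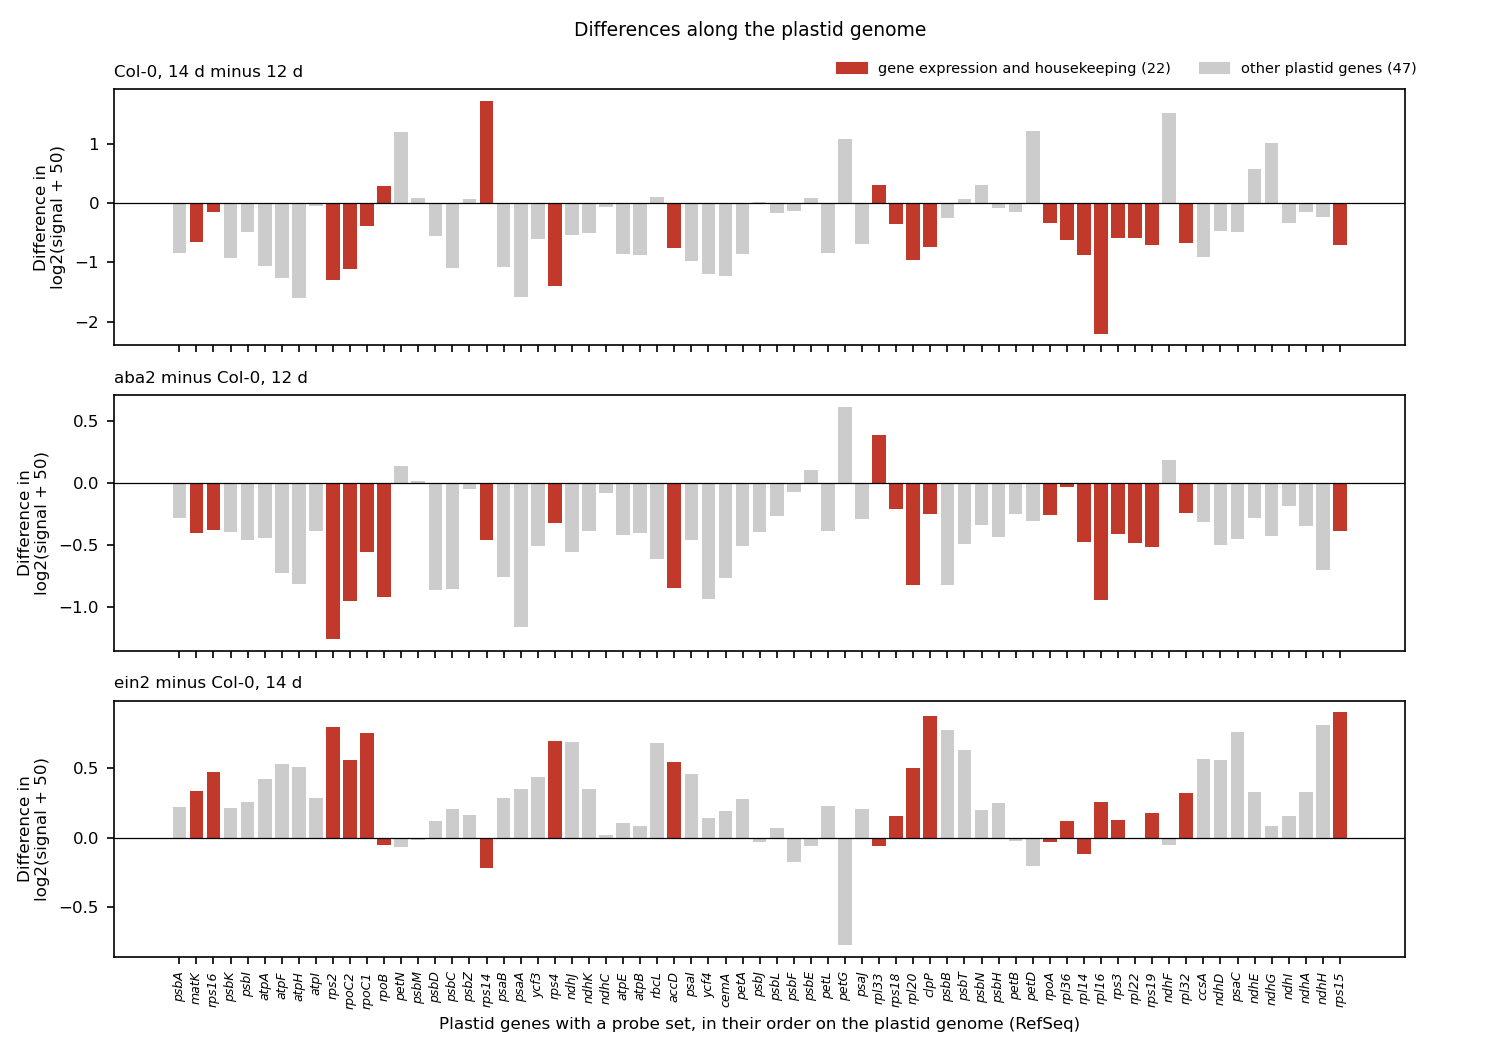
Difference in log2(signal + 50) for 69 plastid genes with a probe set, in their order on the genome, with the 22 gene expression and housekeeping genes in red. The vertical axes differ between panels, and the panel of age shares Col-0 arrays with each of the others. In the panel of age, rpl16 at -2.20 and rps14 at 1.72 stand out from their neighbours.

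Of the plastid genes, the dim ones differed with age from the bright ones. Of the 7 plastid probe sets with a mean signal under 500 (rpoB, rps14, psbN, petD, ndhF, atpI and petN), 6 were higher in mean at 14 d, with a median difference of 1.201. Of the 62 others, 10 were higher, with a median of -0.59. The limit of 500 was chosen after the values were seen. The 5S rRNA control was higher at 14 d too, and the part of signal level or array in the rise of rps14 was not tested.

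The plastid photosynthesis genes were read beside the 22 genes as the nearest comparison. Their median difference with age in Col-0 was -0.24 over 43 genes, of which 5 fell, psaA, psaB and atpB among them, and 1 rose (ndhF), against -0.66 in the 22 genes. In the mutants the medians of the 43 photosynthesis genes and of the 22 genes were -0.39 and -0.46 in aba2 against Col-7, -0.31 and -0.21 in etr1, and 0.22 and 0.28 in ein2. No photosynthesis gene passed in these 3 comparisons, and the sets were not tested against each other. Among plastid genes of neither kind, the cytochrome assembly gene ccsA (-0.91 ± 0.18, limma adjusted p = 0.0245) and the envelope protein gene cemA (-1.23 ± 0.27, limma adjusted p = 0.0346) fell with age.

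The nucleus encodes the partners of these genes. Of 41 listed nuclear genes for proteins of the plastid ribosome, 10 had a paired probe set. With age in Col-0 all 10 were lower in mean, with a median of -0.63, and 3 passed: AT4G01310 (-0.89 ± 0.16, limma adjusted p = 0.0146), AT4G17560 (-0.75 ± 0.16, limma adjusted p = 0.0343) and AT3G54210 (-0.70 ± 0.17, limma adjusted p = 0.0497). The signals of AT4G01310, which codes for a plastid protein of the L5 family, were 4136 and 4391 at 14 d and 8169 and 7700.3 at 12 d, with no overlap. In aba2 the median of these 10 was 0.035 against Col-0 and -0.011 against Col-7, beside -0.43 and -0.46 in the 22 plastid genes. In ein2 it was -0.25, with 10 of 10 lower in mean, beside 0.28 in the 22 plastid genes, and in etr1 it was -0.17. None of the 10 passed in a mutant.

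Partners of the other plastid proteins could be read only in part. Of 14 listed nuclear genes of the Clp protease, 5 had a probe set, and 1 of them, AT4G25370, fell with age (-0.75 ± 0.16, limma adjusted p = 0.0297), beside -0.74 in clpP. Of 8 listed sigma factors and nuclear plastid polymerases 1 had a probe set (AT5G15700, RPOTmp, with a difference of 0.016 with age), of 13 listed proteins bound to the plastid polymerase 0, and of 4 nuclear subunits of the carboxylase 0. The 18 mitochondria-encoded probe sets, the other organelle genome, had a median of 0.44 with age, opposite in sign to the 22 plastid genes. Of them 3 rose (nad4L and 2 probe sets of nad1, subunits of respiratory complex I). They were dim, with median log2 signals of 6.88 and 6.95 on the Col-0 arrays of 12 d. Those of the 22 genes were 12.32 and 12.67. Most dim plastid probe sets and the 5S rRNA control were also higher at 14 d. The part of signal level in the contrast between the organelles was not tested. The green marker LHCB4.1 had a difference of -0.51 with age, -0.12 in ein2, -0.34 in etr1 and -0.074 in aba2 against Col-7, none of which passed. The root markers EXPA7 and AT3G01190 had a median of 0.41 with age, 0.67 in aba2 against Col-7 and 0.22 in aba2 against Col-0. Their median was 0.29 in etr1, -0.17 in ein2 and -0.45 in Col-7 against Col-0, and neither marker passed. The part of tissue make-up in the differences of the 22 genes was not tested.

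**Figure D5:**
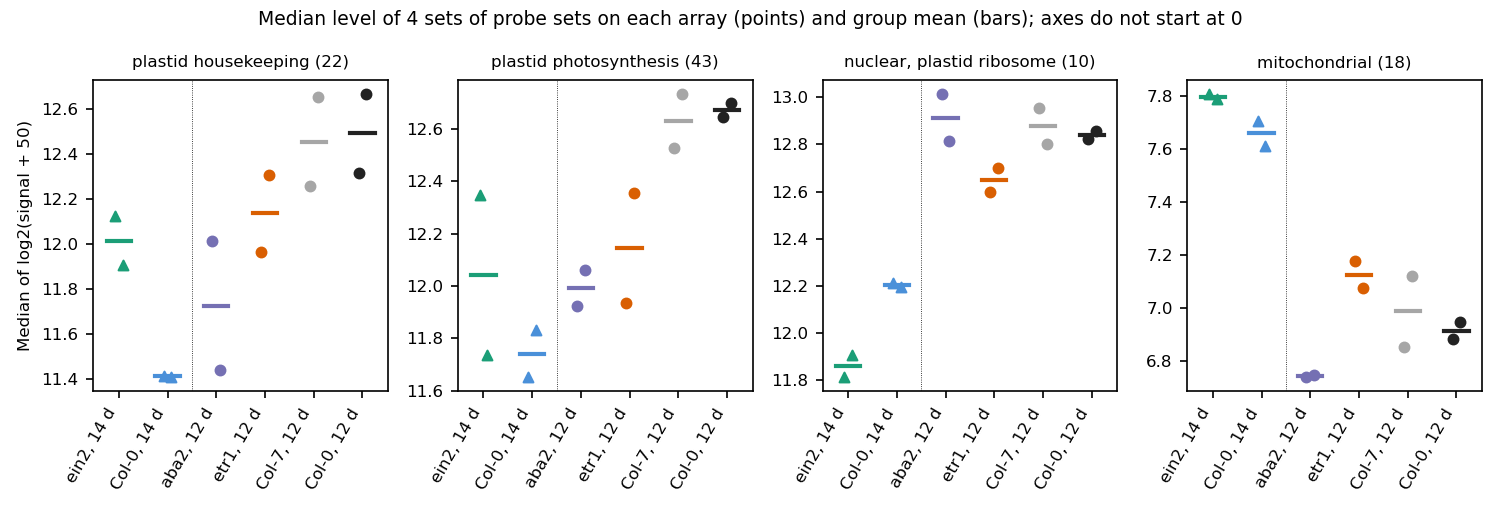
Median of log2(signal + 50) on each array (points) and its mean in each group (bars) for the 22 plastid genes, 43 plastid photosynthesis genes, 10 nuclear genes of the plastid ribosome and 18 mitochondria-encoded probe sets. Axes do not start at 0 and differ between panels. The 2 Col-0 arrays of 14 d are the lowest for the 22 genes, while the 2 ein2 arrays are the lowest for the nuclear genes of the plastid ribosome.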

How the data were processed

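Per the labels and the submitters' processing notes, the authors made the deposited values with MAS5, as 1 linear signal intensity per probe set and array. All 12 columns were used, and 64 control probe sets were left out of the tests. The table of genes paired 13513 of 22746 probe sets with 1 gene, 503 with several genes, which stay unnamed, and left 8730 unpaired. The genome build is not given in the sources used here, so RefSeq (TAIR10.1) served for names and gene order only.

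An offset of 50 was added to the intensity, log2 was taken, and 6 group means were fitted to all 12 arrays with limma 3.58.1 in R 4.3.3 (eBayes with trend, no filter, 6 residual and 4.30 prior degrees of freedom). Tests were two-sided, with Benjamini-Hochberg adjustment over 22746 probe sets in each comparison and a threshold of 0.05. An exact permutation test of 2 arrays against 2 cannot go below 0.333 and was not used. The offset shrinks fold changes of dim probe sets. The number of arrays limits the precision.

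The genes and lists were chosen with earlier results of these data known. Genes given with values for each array are those called in any comparison, the 3 highest and 3 lowest of each main comparison and the brightest and dimmest of each role. Genes given with array values beyond this rule, and the limit of 500, were picked with the values in view. Other genes of each list were named if called, at most 4 in a comparison by p. The marker and partner genes without values here had no paired probe set. The procedure was tested on simulated data. Alternatives were other offsets (10 and 150), normalizations, filters, priors and sets of arrays, the replicate number as a block, and leaving out each array.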

Additional observations from a re-analysis of the deposited data

Results flagged for a closer look

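Between the ethylene mutants, 3 genes lay on opposite sides of their wild types on every array: both etr1 arrays below both Col-0 arrays of 12 d, and both ein2 arrays above both Col-0 arrays of 14 d. Of all probe sets 2.09% lay so, and 2.22% the other way round, where 0 of the 22 genes did. The difference between the etr1 effect and the ein2 effect on the log2(signal + 50) scale was -1.48 ± 0.43 for rpoC1, -1.35 ± 0.33 for clpP and -1.29 ± 0.30 for rps2. None passed the limma test of that difference over all probe sets (adjusted p = 0.950 for rpoC1, 0.860 for clpP and 0.860 for rps2). For clpP the signals were 6389 and 6610.3 in etr1 and 11856 and 7027 in Col-0 at 12 d, and 11325 and 8756 in ein2 and 5157 and 5737 in Col-0 at 14 d.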

How the results depend on the processing

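Leaving out each array in turn gave these ranges of the median log2 difference of the 22 genes: -0.48 to 0.027 in etr1, -0.65 to -0.24 in aba2 against Col-7, -0.49 to -0.41 in aba2 against Col-0, 0.23 to 0.39 in ein2, -0.41 to 0.040 in aba2 against etr1, -0.16 to 0.22 in Col-7 against Col-0, -0.71 to -0.54 with age, and -0.80 to -0.35 in the difference between the etr1 and ein2 effects. The number of the 22 genes called ranged from 1 to 3 lower and from 0 to 0 higher with age, and from 0 to 1 lower in aba2 against Col-0. With age, 0 genes were called higher (rps14 lost) with an offset of 150, quantile normalization, centring on nuclear probe sets, a filter at the 60th percentile (which removes rps14), the replicate block, only the arrays compared, and without both arrays of high 25S rRNA signal, an alternative added after the data were seen. With only the arrays compared, 0 were called lower with age and 0 in aba2 against Col-0, and 0 in aba2 against Col-0 also without both arrays of high 25S rRNA signal. With both wild types as control 1 gene was called lower in aba2 (rps2, -1.18, limma adjusted p = 0.0164). Apart from the fewer arrays or genes in some of these fits, the cause was not tested.

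No gene that passed a test reversed its direction. Some that did not pass did. Across fits that leave out 1 array, the differences in etr1 ran from -0.10 to 0.47 for rpl33, -0.16 to 0.35 for rpoA, -1.19 to 0.020 for rpoC2 and -0.38 to 0.53 for rps16. In aba2 against Col-7 they ran from -0.0030 to 0.41 for rpl33, -0.67 to 0.16 for rpoC1 and -0.34 to 0.24 for rps19, in ein2 from -0.40 to 0.17 for rpl14, -0.19 to 0.073 for rpl33 and -0.84 to 0.41 for rps14, and with age from -0.029 to 0.59 for rpoB. Without both arrays of high 25S rRNA signal, rpl33 was -0.10, rpoA -0.047 and rps16 -0.38 in etr1, and with quantile normalization rps19 was 0.016 in aba2 against Col-7.

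The labels do not say what a replicate number stands for. The difference between arrays 1 and 2 correlated at 0.25 to 0.45 among aba2, Col-7 and Col-0 at 12 d and at -0.19 to 0.066 in all other pairs of groups, and 2 numbers are too few to settle whether they pair those arrays. The replicate block changed no call of the 22 genes other than that of rps14 with age (limma adjusted p = 0.0559), and with it rps2 in aba2 had an adjusted p of 0.0295 against Col-0 and 0.0894 against Col-7. Over all probe sets the calls ran, across alternatives, from 0 to 244 in etr1 (47 as reported), 0 to 220 in aba2 against Col-7 (61), 0 to 420 in aba2 against Col-0 (193), 12 to 96 in ein2 (51), 88 to 1053 between aba2 and etr1 (590), 0 to 109 between Col-7 and Col-0 (0), 0 to 1153 with age (781) and 0 to 5 in the difference of effects (2). With age 76.7% of calls were higher, 57.8% with centring on nuclear probe sets, which moved the median of all probe sets to -0.094 from 0.0063, and 71.2% with quantile normalization. Under that centring rpl16 was -2.30 and rps14 1.62 with age, values that include the shift.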

Other observations

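The 2 arrays of a group did not always place the plastid genes alike. Over the 22 genes the log2 difference between array 1 and array 2 had a standard deviation of 0.56 in aba2 and 0.53 in ein2, against 0.32 and 0.27 over all probe sets, and for the remaining groups it was 0.38 (Col-0, 14 d), 0.30 (etr1), 0.41 (Col-7) and 0.44 (Col-0, 12 d). The summed signal of the 22 genes was 100261 and 93179 in aba2, 93877 and 118415 in etr1, 112108 and 139142 in Col-7, and 122618 and 122528 in the younger Col-0 plants. At 14 d it was 96868 and 95325 in ein2, and 76723 and 80709.9 in Col-0.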
